A study of Mus musculus with 8 samples.

Results

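The Hox genes are homeobox genes of clusters A to D, and they were followed here through the cell classes, neuron subtypes and conditions of the low thoracic spinal cord of the mouse. Every symbol of the count matrix made of Hox, a cluster letter and a number was taken, which gave 34 of 19787 genes. HoxA held 9 of them, HoxB 10, HoxC 7 and HoxD 8. The annotation used for coordinates names 39 such genes, and Hoxa4, Hoxa13, Hoxc11, Hoxc12 and Hoxd12 were not analysed here. A UMI, that is a distinct captured transcript molecule, was found in any nucleus for 32 of the 34 genes and in neurons for 29. Hoxa3, Hoxa11, Hoxc13, Hoxd10 and Hoxd11 had none in neurons, and Hoxc13 and Hoxd11 had none in any nucleus.

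Hox proteins are transcription factors that give cells an address along the body axis. Genes with low paralogue numbers are switched on early in the embryo and reach far forward into the hindbrain, and genes with high numbers are switched on later and stay in the lumbar and sacral cord. In the developing cord they set the columns and pools of motor neurons, they bind DNA together with Pbx and Meis cofactors, and Polycomb complexes keep the unused ones silent.

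Nuclei of wild-type C57BL/6 mice were profiled with 10x v3 chemistry in 8 libraries from 3 experiments, which held 12447 nuclei in 6 classes and 4076 neurons in 28 subtypes. Experiment 1 gave traced neurons, which carried GFP because they project to centres of walking in the lumbar cord, and the GFP-free nuclei of the same 2 uninjured animals, here called untraced. Experiment 2 gave 2 libraries after a hemisection of the cord, a cut through 1 side, and 1 uninjured library. Experiment 3 gave 1 library of regenerating, GFP-labelled neurons. All groups share strain, genotype and cord level, and the sources used here do not give sex, age, tracer or time after injury. The sorted groups are small, with 80 and 25 traced neurons, and 2 groups, uninjured cord of experiment 2 and regenerating neurons, are single libraries without an SD.

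Depth differed widely between libraries. Neurons gave from 135012 UMIs in the regenerating library, where the median was 488 UMIs per nucleus, to 20739862 in the uninjured library of experiment 2, with 333459 to 8141448 in the others. The deposited classes carried their markers, with summed oligodendrocyte markers at 14168 to 19481 CPM (counts of a gene scaled to the same UMI total in each sum) in oligodendrocytes, microglial markers at 6255 to 10037 CPM in microglia and neuron markers at 7636 to 13693 CPM in neurons. The uninjured library of experiment 2 stood apart. All of its 2148 neurons have a barcode in their name and all of its 4489 other nuclei have none, and its oligodendrocytes and microglia held 1735 and 2542 CPM of the 4 measured neuron markers, against 88.9 to 391 CPM in these classes elsewhere. Among the 7720 nuclei with a barcode in their name, 4 barcode sequences were shared between libraries, with 0 pairs of identical counts. The 4727 nuclei without one, among them all 238 regenerating neurons, could not be compared in this way.

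The homeobox, the stretch that encodes the DNA-binding domain of every Hox protein, is shown for Hoxc4 and Hoxb6, the genes with the highest CPM in neurons of their clusters, and for Hoxa10, the highest gene of paralogue group 10, because the levels described below step down from the first of these to the last. The 180 bases were read from GENCODE M21 transcripts (GRCm38). Capitals mark the bases that encode part of the helix that lies in the major groove of the DNA. In genome coordinates Hoxc4 lies at chr15:103018934-103036852 and Hoxb6 at chr11:96292476-96301569 on the plus strand, and Hoxa10 at chr6:52231197-52240854 on the minus strand.
Hoxc4: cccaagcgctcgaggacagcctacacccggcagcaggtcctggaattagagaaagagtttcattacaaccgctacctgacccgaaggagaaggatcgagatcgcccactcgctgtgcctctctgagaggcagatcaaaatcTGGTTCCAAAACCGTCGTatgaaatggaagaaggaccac
Hoxb6: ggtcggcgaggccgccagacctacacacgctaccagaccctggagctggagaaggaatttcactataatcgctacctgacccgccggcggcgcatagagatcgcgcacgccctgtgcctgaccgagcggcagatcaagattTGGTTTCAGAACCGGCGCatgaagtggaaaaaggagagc
Hoxa10: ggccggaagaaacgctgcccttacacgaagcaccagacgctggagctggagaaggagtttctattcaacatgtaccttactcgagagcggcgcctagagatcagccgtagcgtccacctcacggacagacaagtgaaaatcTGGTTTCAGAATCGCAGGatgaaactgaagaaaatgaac
Hoxc4 and Hoxb6, both of the middle of their clusters, shared 126 of the 180 bases. Hoxa10 shared 114 with Hoxb6 and 105 with Hoxc4. Of the 18 capitals 14 were shared by Hoxb6 with either other gene, and 12 by Hoxc4 and Hoxa10.

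In neurons of uninjured cord the genes of the middle of the clusters were the highest. Hoxc4 stood at 144.6 and 158.9 CPM in traced replicates 1 and 2, at 98.3 and 111.9 in untraced replicates 1 and 2 and at 106.7 in the uninjured library of experiment 2. Hoxc5 stood at 140.5, 173.9, 70.4, 85.0 and 135.5 CPM in the same order, and in both genes the untraced replicates lay below the traced ones. Their means were 124 ± 26.2 and 121 ± 42.6 CPM (SD, n = 5 libraries), above 91.8% and 91.5% of all genes in the matrix. Hoxb6 had a mean of 77.8 ± 21.6 CPM, Hoxb3 71.2 ± 18.1, Hoxa7 56.8 ± 9.05 and Hoxa9 56.4 ± 20.8. Hoxb4, Hoxb8, Hoxb5 and Hoxb9 followed at 42.3 ± 15.5, 42.2 ± 20.03, 36.3 ± 7.33 and 23.2 ± 8.53 CPM. Of the 34 genes 12 exceeded 10 CPM and 14 were under 1 CPM.

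Levels of different genes were compared per kilobase of exon. Hoxc4 was at 48.3 ± 10.2 CPM per kb, Hoxb6 at 39.6 ± 10.97 and Hoxc5 at 39.2 ± 13.8 (SD, n = 5 libraries), and their ranges overlapped. Within libraries the order changed. Hoxc4 exceeded Hoxb6 in traced replicates 1 and 2 (56.3 and 61.9 against 26.65 and 30.5). It lay below Hoxb6 in untraced replicates 1 and 2 (38.3 and 43.6 against 42.2 and 53.55) and in the uninjured library of experiment 2 (41.55 against 45.1). Hoxc4 exceeded Hoxc5 in every library but the last (41.55 against 43.9). Hoxa7 followed at 19.7 ± 3.15 CPM per kb, and next to it Hoxb3 at 16.8 ± 4.26, Hoxb4 at 16.5 ± 6.05, Hoxb8 at 16.02 ± 7.60 and Hoxb5 at 13.03 ± 2.63 overlapped with one another. Hoxa9, of the thoracic paralogue group 9, stood at 10.1 ± 3.73 and Hoxb9 at 9.02 ± 3.31 CPM per kb. The highest HoxD levels per kb were those of Hoxd4 at 1.88 ± 0.655, Hoxd8 at 1.60 ± 1.07 and Hoxd3 at 1.56 ± 0.798, whose ranges overlapped. Hoxd3 and Hoxd4 share exons on the same strand, so reads between them may be split. Summed per kb, paralogue groups 4 to 8 made up 81.8% of the Hox level, groups 1 to 3 made up 9.39%, group 9 made up 8.13% and groups 10 to 13 made up 0.645%. By cluster HoxB held 49.0%, HoxC 35.5%, HoxA 13.2% and HoxD 2.36%. Nuclear RNA holds introns, and the sources used here do not say whether the authors counted them. Divided by the span of the gene instead, HoxB held 67.8% and HoxC 11.04%, and Hoxc4 ranked 7 and Hoxb5, at 13.03 CPM per kb of span, ranked 1.

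**Figure D1:**
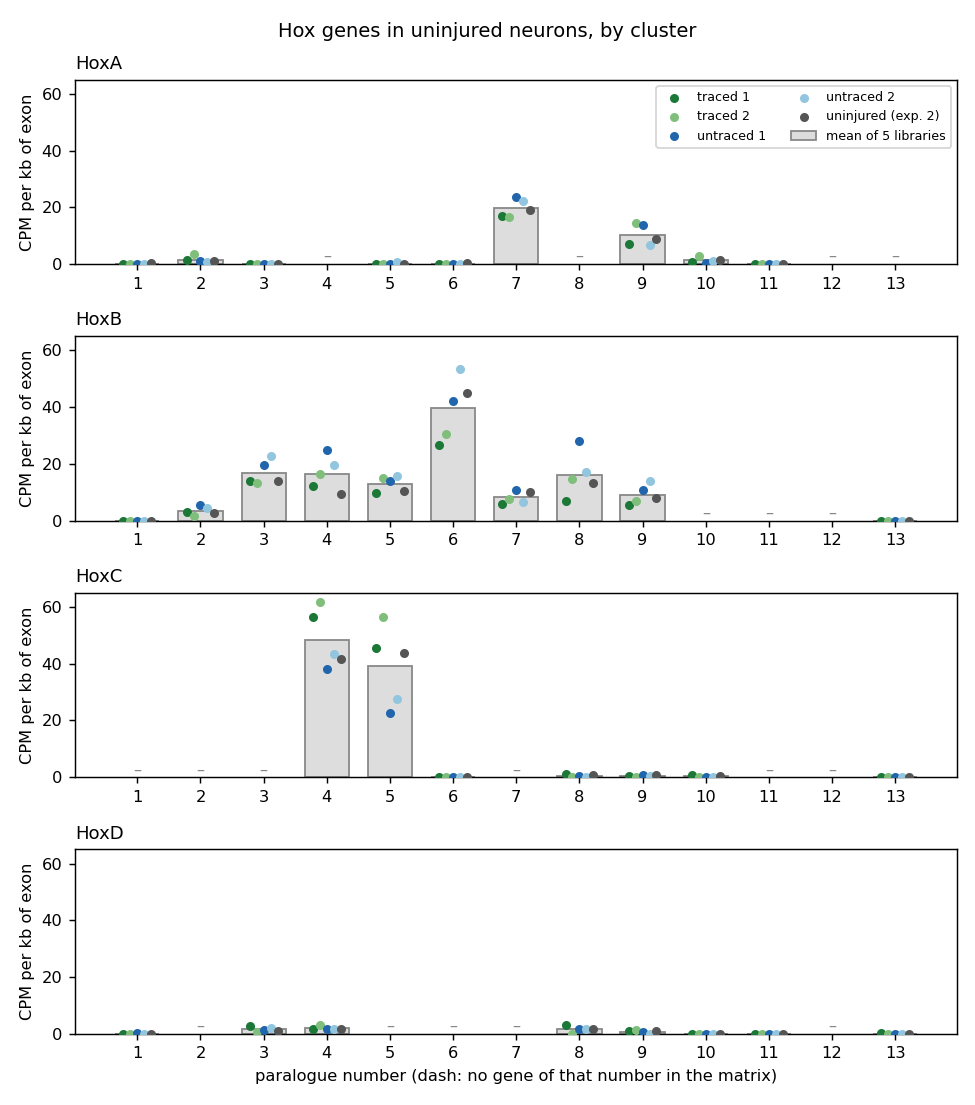
Level in uninjured neurons (CPM per kb of exon, y axis) by paralogue number (x axis) in the 4 clusters, with 1 point for each of the 5 uninjured libraries and bars for their mean. The bars of Hoxc4, Hoxb6 and Hoxc5 reach 48.3, 39.6 and 39.2 CPM per kb, HoxD bars stay at 1.88 or less, and a dash marks a number with no gene in the matrix.

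Some of the low levels belonged to genes that lie inside the span of another gene. The span of Hoxa3, Hoxa5, Hoxa6, Hoxc6, Hoxc8, Hoxc9 and Hoxd4 lies wholly within other spans on the same strand, and 6 of these 7, among them Hoxc9, which sets thoracic motor neuron identity in the embryo, were under 3 CPM in uninjured neurons, with a range of 0 to 5.55 CPM. Over all genes the 145 so placed had a median of 0.0859 CPM, against 8.76 CPM for the 18745 genes whose span lies apart, and the 23 Hox genes apart had a median of 4.39 CPM. Reads that fall on both genes may have been dropped or split, so the levels of these genes are uncertain, and the part of this overlap in their low values was not tested. Antisense genes lie opposite 52.9% of the exon bases of Hoxb3 and 20.4% of those of Hoxa7, and whether counting used strand is not stated.

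Paralogue groups 10 to 13, the lumbosacral end of the clusters, were nearly absent. Of their 8 genes 4 had a UMI in neurons. Over all libraries these were 175 UMIs of Hoxa10, 34 of Hoxc10, 1 of Hoxb13 and 1 of Hoxd13. The level of Hoxc10 is uncertain, since 87.3% of its span lies within that of Hoxc5 on the same strand. Hoxa13, Hoxc11, Hoxc12 and Hoxd12, also of these groups, were not analysed here. Hoxa10, which directs lumbar motor neuron identity in the embryo, stood at 2.75 and 8.997 CPM in traced, 1.42 and 3.36 in untraced and 4.68 in uninjured neurons of experiment 2, at 7.001 and 4.78 after hemisection, and at 7.41 from 1 UMI in the regenerating library. These groups gave 0.881% of the Hox UMIs of neurons in the uninjured library of experiment 2 (95% exact Clopper-Pearson interval 0.731 to 1.05), and 0.192% to 1.17% in the other 7 libraries. Untraced replicate 1 had the lowest share, from 5 of 2605 UMIs, and its interval of 0.0624% to 0.447% lay below those of the uninjured library of experiment 2 and of hemisection replicate 1 (0.785% to 1.29%). The intervals of the remaining libraries, which held 1 to 7 such UMIs, overlapped with these, so no further difference was detectable at this depth. With group 9 included, whose genes mark the thoracic cord, the shares were 9.58% to 14.7%.

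Across cell classes the summed Hox level was high in neurons and vascular nuclei and lowest in oligodendrocytes and microglia. A sum over nuclei cannot tell fewer expressing cells from less RNA per cell. Neurons held 753 ± 94.3 CPM of the 34 genes together (SD, n = 8 libraries), from 633 in traced replicate 1 to 940.7 in the regenerating library. Vascular nuclei held 680.2 CPM in the 1 library with enough of them, the uninjured one of experiment 2, where neurons held 656.9. These vascular nuclei also held 1450 CPM of the 4 neuron markers, and the part of neuronal RNA in their Hox level was not tested. Astrocytes held 347.8 CPM in untraced replicate 1 and 460 CPM in the uninjured library of experiment 2. Oligodendrocyte precursors held 215.7, 129.2 and 154.6 CPM in untraced replicates 1 and 2 and hemisection replicate 2, and 246.9 CPM in the uninjured library of experiment 2. In oligodendrocytes the values were 46.2 and 44.0 CPM in untraced replicates 1 and 2, 66.2 and 39.5 after hemisection, and 215.5 in the uninjured library of experiment 2. Microglia held 42.0, 43.7, 12.1 and 40.0 CPM in the same 4 libraries and 268.8 CPM in the uninjured library of experiment 2. The ranges of neurons and of oligodendrocytes, precursors, microglia and astrocytes did not overlap.

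**Figure D2:**
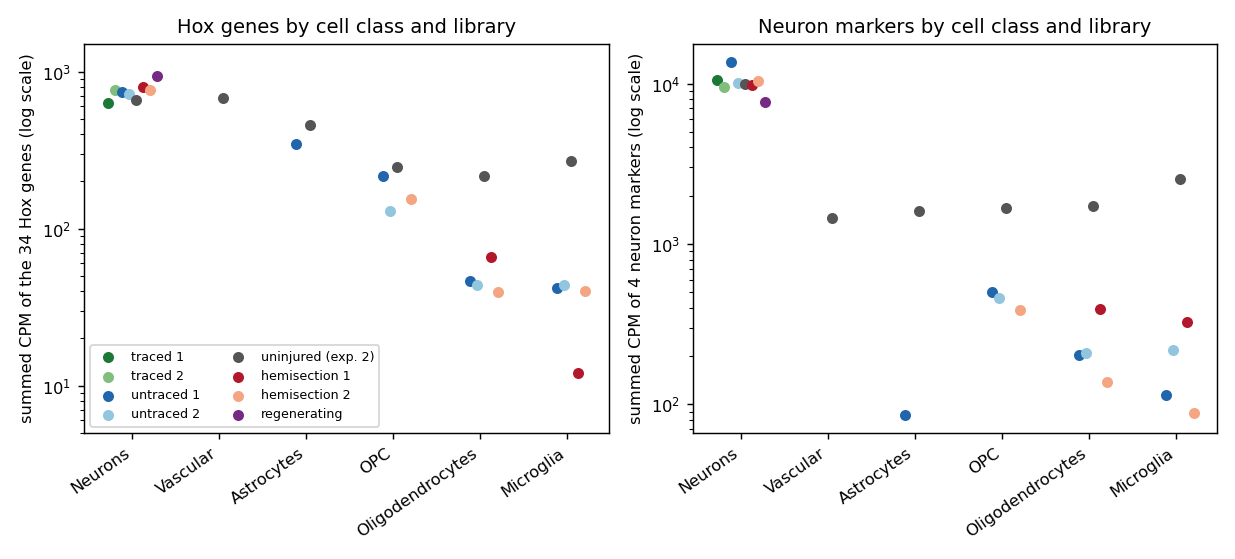
Summed CPM of the 34 Hox genes (left, log scale) and of 4 neuron markers (right, log scale) by cell class, with 1 point for each library that holds at least 20 nuclei of the class. In oligodendrocytes and microglia the uninjured library of experiment 2 lies above the others in both panels, at 215.5 and 268.8 CPM on the left and 1735 and 2542 CPM on the right.

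The higher glial values of the uninjured library of experiment 2 came with the higher neuron markers named above. The part of neuronal RNA in these values was not tested. Neuron markers stood at 386.4 to 502.2 CPM in precursors elsewhere and at 85.7 CPM in astrocytes of untraced replicate 1. Precursors, astrocytes and vascular nuclei of the uninjured library of experiment 2 held 1677, 1597 and 1450 CPM of them. Snap25, a neuronal gene of vesicle release, stood at 393.7 CPM in its oligodendrocytes and 582.8 CPM in its microglia, against 13.6 to 48.2 CPM in these classes elsewhere and 811.9 CPM in its own neurons. Because the split of names runs along the same line as the classes, neurons and other nuclei of this library cannot be told apart from 2 sets of nuclei handled differently. Without it, an alternative chosen after the data were seen, oligodendrocytes held 49.0 ± 11.8 CPM (SD, n = 4), microglia 34.5 ± 15.0 (SD, n = 4) and precursors 166.5 ± 44.4 (SD, n = 3).

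Single Hox genes were then compared between neurons and each class. The classes are the deposited annotation of the same nuclei, so differences between them are descriptions and carry no p. Without the uninjured library of experiment 2, 15 of 16 Hox genes with at least 30 UMIs were higher in neurons than in oligodendrocytes in all 4 libraries, where 33% of all genes were, and 0 of the 16 were lower (27.1%). Hoxd1, with fewer than 30 UMIs in these libraries and so not among the 16, was lower in neurons in all 4, with a mean of 0.0713 CPM against 3.98 in oligodendrocytes. Against microglia 16 of 16 were higher in 4 libraries (30.2% of all genes) and 0 lower (29.9%), and against precursors 13 of 13 were higher in 3 libraries (33.5%) and 0 lower (18.4%). The median difference of the Hox genes, in log2(CPM + 1) and neurons minus the class, was 3.61 for oligodendrocytes, 3.78 for microglia and 2.86 for precursors, beside 0.08, 0.07 and 0.39 over all genes. With that library included, 14 of 22 genes were higher than in oligodendrocytes in all 5 libraries (28% of all genes), 12 of 21 than in microglia (24.3%, with 0 lower beside 25.6%) and 12 of 20 than in precursors (25.5%, with 0 lower beside 14.2%). Astrocytes lay nearer to neurons, with 11 of 20 genes higher in neurons (37.2%) and 4 lower (39%) in both libraries, and with 11 of 12 higher (53%) and 1 lower (47%) in untraced replicate 1 alone.

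Hoxc5 stood at 33.7 CPM in astrocytes and 135.5 in neurons of the uninjured library of experiment 2, and at 17.1 against 70.4 CPM in untraced replicate 1. Hoxa7 stood at 79.4 against 54.8 CPM and at 78.4 against 68.4 CPM in the same 2 libraries, so it was higher in astrocytes in both. Hoxa9 kept no one direction, at 66.1 CPM in astrocytes against 49.6 in neurons in the first library and at 36.7 against 76.1 CPM in untraced replicate 1. In oligodendrocytes Hoxa7 was at 3.19, 2.44, 12.04 and 2.29 CPM in untraced replicates 1 and 2 and hemisection replicates 1 and 2, and at 29.3 in the uninjured library of experiment 2. Hoxb8 was at 3.19, 5.70, 18.1 and 8.02 CPM and at 36.6 CPM there, against 73.5, 44.8, 40.4, 52.6 and 35.1 CPM in the neurons of these 5 libraries, so that only the last pair was close. Vascular nuclei were led by the HoxB genes, with Hoxb6 at 120 CPM, Hoxb3 at 106.7 and Hoxa7 at 67.9, and with Hoxc4 and Hoxc5 at 60.6 and 55.8, and in that library 7 of 20 Hox genes were higher in neurons (41.4% of all genes) and 13 lower (58.6%).

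Hoxd8 and Hoxd1 lay higher in oligodendrocytes than in neurons. Hoxd8 was also higher in astrocytes, at 12.25 against 4.56 CPM in neurons of untraced replicate 1. In the uninjured library of experiment 2 astrocytes held 9.14 and vascular nuclei 9.70 CPM of it, against 4.63 in neurons. Hoxd8 stood at 15.1, 12.2, 11.6 and 9.74 CPM in oligodendrocytes of untraced replicates 1 and 2, the uninjured library of experiment 2 and hemisection replicate 2, against 4.56, 4.47, 4.63 and 2.87 CPM in their neurons. In these 4 libraries oligodendrocytes were higher each time, and hemisection replicate 1 had 0 UMIs in 62 nuclei, which allows up to 18.1 CPM. Hoxd1, a gene of the front end of its cluster, had 55 UMIs in oligodendrocytes at 2.54 to 6.02 CPM in 5 libraries and 4 UMIs in neurons at 0 to 0.285 CPM. It was the 1 of 22 genes lower in neurons than in oligodendrocytes in all 5 libraries, where 23.2% of all genes were lower. Hoxd8 and Hoxd1 were no higher in the oligodendrocytes of the uninjured library of experiment 2 than in the highest of the other libraries. The part of neuronal RNA in these values was not tested.

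Shares of nuclei were compared after thinning each nucleus to 1000 UMIs. A Hox UMI was then found in 49.7% of neurons, 47.3% of vascular nuclei, 33.1% of astrocytes, 17.9% of precursors, 13.6% of oligodendrocytes and 10.1% of microglia. Before thinning the shares were 91.6%, 78.1%, 78.3%, 60.4%, 34.6% and 18.1%, at median depths of 8302 UMIs in neurons, 3072 in oligodendrocytes and 2128 in microglia. Thinning left out 301 neurons with fewer UMIs, 206 of them regenerating, and 99 oligodendrocytes. By library the thinned shares were 44.4% to 55.7% in neurons. In oligodendrocytes they were 4.15% to 8.47%, and 20.7% in the uninjured library of experiment 2, and in microglia 0% to 5.59%, and 25.1% there. Free RNA may give a share of this size in nuclei that do not express a gene, and the shares of oligodendrocytes and microglia outside that library overlapped, so they are not read as expression. A neuron at full depth held a median of 4 of the 34 Hox genes and at most 13.

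Within neurons the summed Hox level differed 3.39-fold between subtypes of the uninjured library of experiment 2, from 331 CPM in 24 nuclei of MN to 1121 CPM in 192 nuclei of DE_Sox5_Qrfpr. Among subtypes with at least 50 nuclei the ratio was 2.39. Each subtype is 1 value from 1 library, so the intervals that follow are exact 95% Poisson intervals of the counts and cover counting error only. The first letter of a subtype name other than MN was taken to give its place in the cord (D dorsal, V ventral) and the second its transmitter (E excitatory, I inhibitory). Among the subtypes drawn in the heat map, Hoxc4 and Hoxc5 were highest in DE_Sox5_Qrfpr, at 184.5 CPM (164 to 206.8) and 260.8 CPM (236.4 to 287.1), and lowest in DI_Npy, at 21.9 CPM (9.45 to 43.1) and 19.2 CPM (7.70 to 39.4). Both genes thus had their high and low ends in dorsal subtypes, the first excitatory and the second inhibitory.

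The 6 HoxB genes among the 10 highest all peaked in dorsal subtypes. Hoxb6 stood at 215.9 CPM (186.2 to 248.9) in DE_Tac2_Nmu and 35.5 CPM (20.3 to 57.7) in MN. Hoxb5 was highest in the same subtype, at 81.1 CPM (63.3 to 102.3), and stood at 13.3 CPM (4.89 to 29.0) in MN. Hoxb3 peaked in DE_Tac1 at 124.8 CPM (84.2 to 178.2), Hoxb4 in DE_Nts at 59.0 (41.5 to 81.3), Hoxb8 in DI_Nxph1_Npy at 66.5 (54.1 to 80.9) and Hoxb9 in DE_Maf_Cpne4 at 37.3 (27.9 to 48.9). The subtype MN held the lowest Hoxb3, 6.66 CPM from 3 UMIs (1.37 to 19.5), and the lowest Hoxb9, 2.22 CPM from 1 UMI (0.0562 to 12.4). Hoxb4 was lowest in the 20 nuclei of DE_Rora, where 0 UMIs were found (upper limit 22.4 CPM), and Hoxb8 in VIP_V1_Foxp2 at 10.6 CPM (6.84 to 15.6). The HoxA genes Hoxa7 and Hoxa9 were both highest in DE_Sox5_Qrfpr, at 84.4 (70.8 to 99.9) and 146.3 CPM (128.2 to 166.3), and both lowest in MN, at 6.66 CPM from 3 UMIs (1.37 to 19.5) and 13.3 CPM (4.89 to 29.0).

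**Figure D3:**
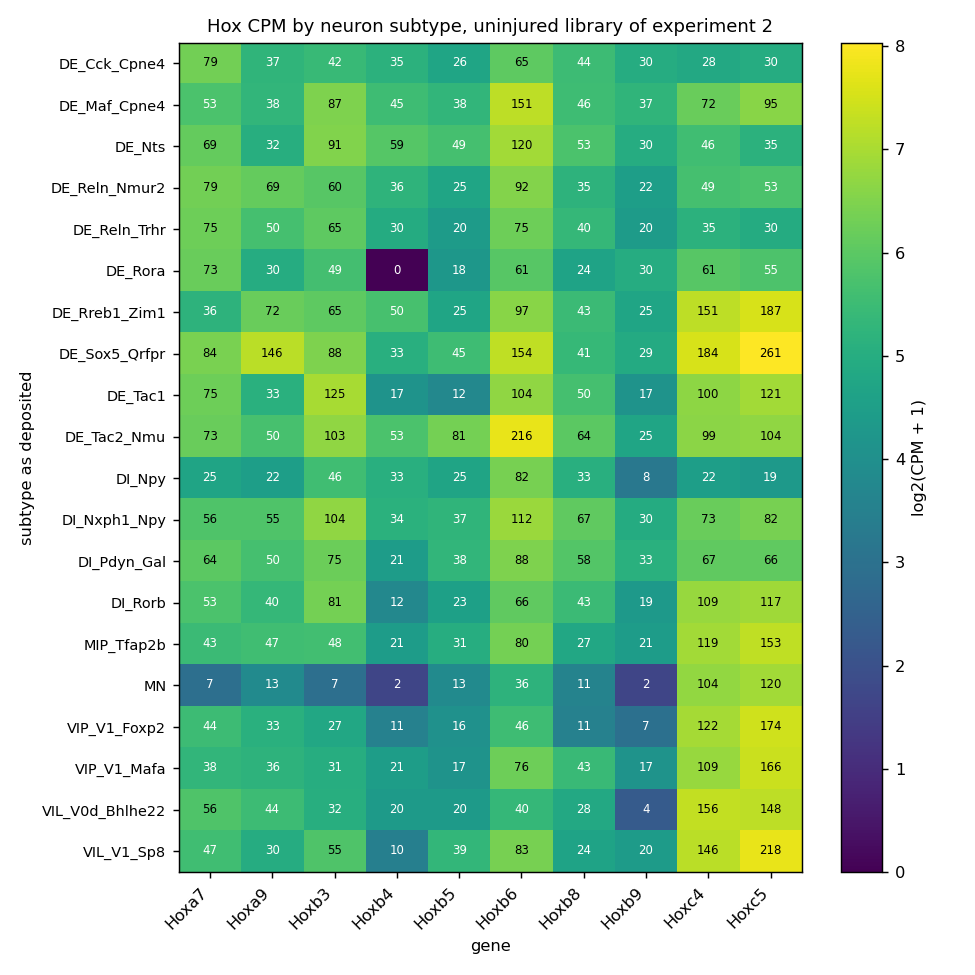
CPM of the 10 highest Hox genes (columns) in 20 of the 24 neuron subtypes with at least 20 nuclei in the uninjured library of experiment 2 (lines), with the colour showing log2(CPM + 1) and each number the CPM. Hoxc4 and Hoxc5 reach 184.5 and 260.8 CPM in DE_Sox5_Qrfpr, and Hoxb6 reaches 215.9 CPM in DE_Tac2_Nmu.

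Profiles over subtypes were compared between genes by Spearman correlation over the 24 subtypes of 1 library, which share its depth and preparation. Pairs of HoxB genes correlated at 0.38 to 0.88 (21 pairs), with Hoxb3 and Hoxb6 highest, Hoxa7 and Hoxa9 at 0.42, and Hoxc4 and Hoxc5 at 0.94. Between clusters, the 14 pairs of a HoxA and a HoxB gene were all positive as well (0.34 to 0.69). The 14 pairs of a HoxB gene with Hoxc4 or Hoxc5 were all negative (-0.45 to -0.20), and the 4 pairs of a HoxA gene with either ran from -0.38 to 0.16. The 11 genes are those with at least 300 UMIs. Part of the Hoxc5 span covers other HoxC genes and Hoxb3 lies opposite an antisense gene, so reads may be shared between neighbours. In hemisection replicate 1 the same profiles over 15 subtypes correlated with those of the uninjured library at 0.33 for Hoxb7 to 0.95 for Hoxc4. In untraced replicate 1, over 7 subtypes, they correlated at 0.96 for Hoxc4, 0.46 for Hoxa7, 0.39 for Hoxb7 and 0 for Hoxb8, which stood at 0.80 in hemisection replicate 1.

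Dorsal and ventral neurons were compared within each library. In the 4 libraries left without the regenerating one, which has 135012 UMIs in its neurons and whose omission was chosen after the data were seen, 10 of 20 Hox genes were higher in dorsal than in ventral neurons in every library, where 13.1% of all genes were, and 4 were lower, where 22.1% were. The 10 were Hoxa7, Hoxa9 and all 8 genes from Hoxb2 to Hoxb9, and the 4 were Hoxc4, Hoxc5, Hoxd3 and Hoxd4. Hoxc8 was higher in dorsal neurons in 2 of the 4 libraries and Hoxc9 in 1, so neither kept 1 direction. The median difference was 0.44 for the Hox genes and -0.07 for all genes on the log2(CPM + 1) scale. With the regenerating library as the fifth, 5 were higher (6.85% of all genes), namely Hoxa7, Hoxb4, Hoxb6, Hoxb7 and Hoxb8, and Hoxc5 alone was lower (10.9%), with a median of 0.33 beside -0.05.

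Hoxb8, a gene also known for a grooming phenotype when lost in mice, gave the widest split. Dorsal and ventral neurons held 38.0 and 4.92 CPM in traced replicate 1, 103.2 and 15.6 in untraced replicate 1, 48.9 and 17.2 in the uninjured library of experiment 2, and 52.5 and 14.02 in hemisection replicate 1. The dorsal values all exceeded the ventral ones, by 2.16 on average on the log2(CPM + 1) scale (1.46 to 2.72). Hoxb9 stood at 33.2 against 8.59 CPM on average over these 4 libraries, a mean difference of 1.93 (1.45 to 2.68), and Hoxb4 at 56.9 against 20.8 CPM, a difference of 1.43 (1.24 to 1.66). Hoxc5 went the other way, at 99.7 and 154.9 CPM in traced replicate 1, 47.6 and 96.9 in untraced replicate 1, 103.4 and 176.6 in the uninjured library of experiment 2 and 82.5 and 156.3 in hemisection replicate 1. Its mean difference was -0.83 (-1.01 to -0.63), that of Hoxc4 was -0.61 (-0.80 to -0.43) and that of Hoxd3, at 4.04 against 9.78 CPM, was -1.07 (-1.29 to -0.94). Hoxa7 differed least among the genes that split alike in all 4, at 67.3 against 46.8 CPM (0.52, from 0.42 to 0.63).

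**Figure D4:**
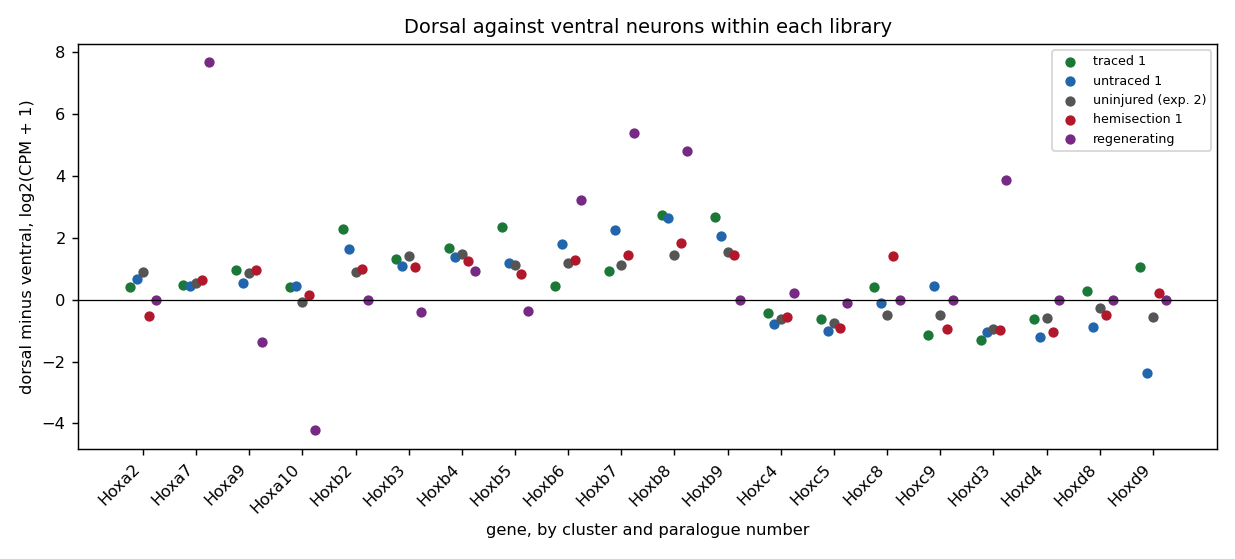
Difference in log2(CPM + 1) between dorsal and ventral neurons (y axis) for each of 20 Hox genes (x axis, by cluster and paralogue number), with 1 point for each of 5 libraries. Hoxb2 to Hoxb9 lie above 0 in 4 libraries and Hoxc4, Hoxc5, Hoxd3 and Hoxd4 below, and the regenerating library, with 135012 UMIs in its neurons, lies apart for several genes.

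Excitatory and inhibitory neurons were compared in the same way. Among dorsal neurons, Hoxa9 and Hoxb7 were the 2 of 17 genes higher in excitatory than in inhibitory ones in all 6 libraries (5.58% of all genes), and 0 were lower (4.31%). Without the regenerating library, Hoxa7, Hoxa9, Hoxb5 and Hoxb7 were higher in the other 5 (9.98%) and Hoxd3 was lower (10.7%). Hoxa9 averaged 80.8 against 42.7 CPM there, a difference of 0.99 (0.42 to 2.49), with the highest contrast in the 23 inhibitory nuclei of hemisection replicate 2. Among ventral neurons 0 of 16 genes kept one direction in all 4 libraries (6.52% of all genes higher and 4.84% lower). Without the regenerating library, Hoxd8 was higher in excitatory neurons (14.6%), and Hoxb3, Hoxb4, Hoxb5, Hoxb8 and Hoxd4 were lower (17.8%) in 3 libraries.

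Traced neurons were set against untraced ones to ask how projection to the walking centres relates to expression. No gene was called: 0 of the 16 Hox genes passed an adjusted p of 0.05 in edgeR over 11601 genes, where 0.362% of all genes did, 7 had an unadjusted p under 0.05, where 8.02% of all genes had, and DESeq2 called 0 (3 at an unadjusted p under 0.05). The median log2 fold change was -0.45 for the Hox genes and 0.00 for all genes. The 3 genes with the smallest p were Hoxc5, Hoxb8 and Hoxb6. Hoxc5 stood at 140.5 and 173.9 CPM in traced and 70.4 and 85.0 in untraced neurons, without overlap, a log2 fold change of 0.95 (SE 0.21, edgeR adjusted p = 0.0763). Hoxb8 stood at 18.6 and 39.0 CPM in traced and 73.5 and 44.8 in untraced neurons, also without overlap, a log2 fold change of -1.40 (SE 0.35, edgeR adjusted p = 0.122). Hoxb6 was at 52.3 and 59.98 against 82.9 and 105.2 CPM (-0.81, SE 0.24, edgeR adjusted p = 0.221).

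The fractions of an animal are paired, and with the animal as a block in the 4 libraries of experiment 1 Hoxc5 rose (0.97, edgeR adjusted p = 0.00896) and Hoxb8 fell by 1.43 in log2 units (edgeR adjusted p = 0.0214), 2 of 13 genes beside 1.6% of all genes tested. In these 4 libraries without the block, a fit added after the data were seen, 0 were called, with Hoxc5 at an edgeR adjusted p of 0.127 and Hoxb8 at 0.174. Leaving out untraced replicate 2 also gave 2 calls. Dorsal subtypes made up 41.2% and 40.0% of traced and 74.9% and 83.7% of untraced neurons. Hoxb8 and Hoxc5 are among the genes that split dorsal from ventral neurons, and the part of subtype make-up in the traced values was not tested. Within the dorsal excitatory subtypes, with 30 nuclei of traced replicate 1 and with replicate 2 left out for its 9, Hoxb8 was at -1.33 (edgeR adjusted p = 0.430) and Hoxc5 at 0.73 (edgeR adjusted p = 0.571), and 0 of 12 genes were called (3 at an unadjusted p under 0.05).

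Experiment 2 compared hemisected cord, after natural repair, with uninjured cord. Hoxb4 and Hoxb3, anterior HoxB genes of the hindbrain and cervical cord in the embryo, rose. They were 2 of 16 genes higher (0.948% of all genes) and 0 were lower (4.61%), 4 had an unadjusted p under 0.05 (19.1%), and the median log2 fold change was 0.45 beside 0.03. Hoxb4 stood at 52.3 and 52.6 CPM in hemisection replicates 1 and 2 against 24.5 CPM without injury, a log2 fold change of 1.21 (SE 0.26, edgeR adjusted p = 0.0130). Hoxb3 stood at 99.6 and 98.5 CPM against 59.4, a log2 fold change of 0.85 (SE 0.24, edgeR adjusted p = 0.0466). Both calls rest on the 1 uninjured library. Against the untraced libraries, which are uninjured cord of experiment 1 at 63.6 and 50.3 CPM for Hoxb4 and 83.2 and 97.3 for Hoxb3, the log2 fold changes were -0.13 and 0.17 (edgeR adjusted p = 1 for both) and 0 Hox genes were called (0.19% of all genes were, in either direction), an alternative chosen after the data were seen.

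Neither call held in DESeq2, which called 0 (2 at an unadjusted p under 0.05) and where the adjusted p was 0.232 for Hoxb4 and 0.529 for Hoxb3, without hemisection replicate 1 or without replicate 2, or in the dorsal excitatory subtypes alone, where log2 fold changes were 0.63 (edgeR adjusted p = 0.427) and 0.57 (edgeR adjusted p = 0.371). Dorsal subtypes made up 71.5% and 79.6% of neurons after hemisection and 63.4% in the uninjured library, and all 6 oligodendrocyte markers fell in these neurons, from 687.4 to 72.1 and 158.7 CPM in sum. The part of either in the rise was not tested. The uninjured library set directly against the untraced ones gave Hoxb4 as its 1 called gene of 16, lower (0.509% of all genes), and 0 higher (2.07%), with a log2 fold change of -1.34 (SE 0.27, edgeR adjusted p = 0.0147), and both of these contrasts share that library.

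**Figure D5:**
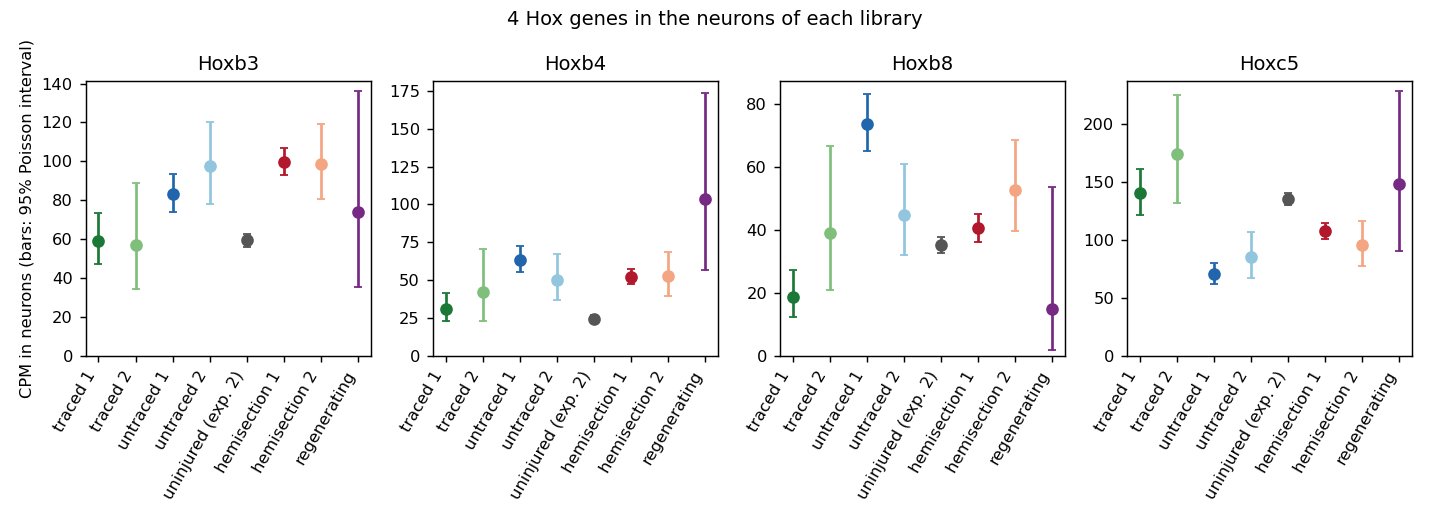
CPM of Hoxb3, Hoxb4, Hoxb8 and Hoxc5 in the neurons of each library (points), with exact 95% Poisson intervals for counting error. Hoxb4 is at 24.5 CPM in the uninjured library of experiment 2 and at 50.3 to 63.6 CPM in both hemisection and both untraced libraries, and the interval of the regenerating library is the widest.

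In glia the same comparison gave lower values after hemisection. In oligodendrocytes 4 of 14 Hox genes fell (4.77% of all genes), Hoxa7, Hoxa9, Hoxb6 and Hoxb3, and 0 rose (2.83%), with a median log2 fold change of -2.89 beside -0.08. Hoxa7 stood at 12.04 and 2.29 CPM against 29.3 CPM (-2.97, SE 0.78, edgeR adjusted p = 0.0240), and Hoxb6 at 6.02 and 1.72 against 19.2 CPM (-3.01, SE 0.87, edgeR adjusted p = 0.0411). Hoxa9 had 2 UMIs after hemisection and 234 in the uninjured library, a ratio of CPM of 0.0511 (95% counting interval 0.00615 to 0.187, edgeR adjusted p = 0.0130). Hoxb3 had 0 and 108 UMIs, at least 6.02-fold lower when 3 counts are allowed to the hemisection group (edgeR adjusted p = 0.0431). With genes at 0 set to that bound the median was -2.66. The filter on low counts keeps a gene that reaches its cutoff in 1 library, the size of the smallest group. Hoxa9 and Hoxb3, and the uncalled Hoxb2, Hoxc4 and Hoxc5, passed it only through the uninjured library, where they were high. For these genes a fall was favoured before the test. The count of 4 of 14 and both medians include such genes, so they too were favoured towards a fall.

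In microglia 2 of the 2 genes tested fell (13% of all genes) and 0 rose (7.35%). Both passed the filter on low counts only through the uninjured library, where they were high. A fall was thus favoured before the test, and this count carries no weight. Hoxa7 had 1 UMI after hemisection and 47 in the uninjured library, a ratio of 0.0163 (0.000404 to 0.0952, edgeR adjusted p = 0.00409), and Hoxb8 stood at 0 and 5.60 CPM against 47.1 (-3.15, SE 0.99, edgeR adjusted p = 0.0149). The uninjured side is the library whose glia also held the higher neuron markers. Set against the untraced libraries instead, 0 Hox genes were called in oligodendrocytes (3.01% of all genes were) and 0 in microglia (7.68%), and Hoxa7 in oligodendrocytes was at 0.11 (edgeR adjusted p = 0.994). That library against the untraced ones is a comparison without injury, added after the data were seen. It gave 7 of 14 genes higher in oligodendrocytes (7.34% of all genes), 0 lower (1.87%) and a median log2 difference of 2.75. The filter favoured genes high in that library here as well. An edgeR interaction test, added after the data were seen, set the hemisection effect in glia against that in neurons. It called 11 of 17 genes for oligodendrocytes (3.17% of all genes) and 10 of 12 for microglia (10.3%), all more positive in neurons. Neurons and glia of the same library entered it as independent samples, so its p-values do not account for their pairing. DESeq2 called 0 in both glial classes (1 in each at an unadjusted p under 0.05), and without hemisection replicate 2 edgeR called 0 in both. Precursors, astrocytes and vascular nuclei were too few in experiment 2 to be tested.

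The regenerating neurons of experiment 3 were set against traced neurons of uninjured cord. None of the 16 Hox genes was called by edgeR (0 of 16, beside 0.276% of all genes) or by DESeq2 (0), and 4 had an unadjusted p under 0.05 in edgeR (14.7% of all genes) and 3 in DESeq2. The library holds 127 Hox UMIs in 238 nuclei. Hoxb4 stood at 103.7 CPM against 30.99 and 42.0 in traced neurons (1.57, SE 0.46, edgeR adjusted p = 0.174), Hoxa7 at 111.1 against 48.9 and 48.0 (1.16, SE 0.43, edgeR adjusted p = 0.244) and Hoxb6 at 118.5 against 52.3 and 59.98 (1.08, SE 0.42, edgeR adjusted p = 0.266). All 3 lay above both traced libraries, but each rests on a small part of the 127 Hox UMIs. Of the Hoxb4 UMIs, 8 lay in the 26 nuclei of DE_Maf_Cpne4. Hoxb2, Hoxb9, Hoxd4 and Hoxd8 had 0 UMIs in the regenerating library. Since 0 UMIs allow up to 22.2 CPM at this depth, more than their traced level, no fold is given. The median log2 fold change was 0.15 with such genes at their bound (0.11 as fitted), beside -0.28 over all genes. Dorsal subtypes made up 59.7% of regenerating and 41.2% and 40.0% of traced neurons, and the part of this in the values was not tested.

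The genes that work with Hox genes were read from 3 lists. Of 9 Hox cofactors, all tested, Meis2 rose in traced neurons, at 327.2 and 380.9 against 117.7 and 99.6 CPM (log2 fold change 1.61, SE 0.24, edgeR adjusted p = 0.00778), where 0.362% of all genes were called. Without traced replicate 1 the call was lost (edgeR adjusted p = 0.0601). The list's median log2 fold change was 0.07 there, 0.25 after hemisection and 0.19 in the regenerating library, beside 0.00, 0.03 and -0.28 over all genes. Pbx3, another partner in DNA binding, was lower in the regenerating library, at 133.3 against 407.1 and 413.8 CPM, and fell by 1.65 in log2 units (SE 0.32, edgeR adjusted p = 0.0450), where 0.276% of all genes were called. That call was lost without traced replicate 1, when edgeR called 0 genes in all (adjusted p = 0.173 for Pbx3), without traced replicate 2 (edgeR adjusted p = 0.0510) and with DESeq2 (adjusted p = 0.0577). No cofactor was called after hemisection by edgeR, where Meis1 and Meis2 had the smallest p (0.63 and -0.60, edgeR adjusted p = 0.101 and 0.225). Of 21 Polycomb and Trithorax regulators 18 were tested, and the 2 called after hemisection, both higher, where 0.948% of all genes were, remove the Polycomb mark from histone H3. Kdm6b stood at 57.2 and 94.6 against 24.5 CPM (1.68, SE 0.32, edgeR adjusted p = 0.00517) and Kdm6a at 159.3 and 152.9 against 99.5 CPM (0.76, SE 0.21, edgeR adjusted p = 0.0492). The untraced libraries lay at 75.0 and 87.3 CPM for Kdm6b, and the uninjured library of experiment 2 was lower, with a log2 difference of -1.80 (edgeR adjusted p = 0.00770). For Kdm6a they lay at 163.3 and 166.7 CPM, above both hemisection libraries, and the same difference was -0.82 (edgeR adjusted p = 0.0574). With the untraced libraries as the uninjured side, a comparison chosen after the data were seen, the fold changes after hemisection were -0.12 for Kdm6b and -0.06 for Kdm6a (edgeR adjusted p = 1 for each). The Kdm6a call was also lost without either hemisection replicate (edgeR adjusted p = 0.304 and 0.238) and with DESeq2 (adjusted p = 0.437). The list's medians were -0.14 in traced, 0.29 in hemisected and -0.22 in regenerating neurons. In traced and regenerating neurons 0 of its genes were called by edgeR, and Ring1, a Polycomb subunit, had the smallest p, at 0.85 (edgeR adjusted p = 0.311) and -3.33 (edgeR adjusted p = 0.164). Of 10 inducers of the trunk Hox code 3 were tested, the retinoic acid receptors Rara, Rarb and Rarg, and 0 were called by edgeR in any contrast, with the smallest edgeR adjusted p at 0.327 for Rarb in the regenerating library.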

How the data were processed

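The authors deposited one matrix of raw UMI counts per gene and nucleus, with gene symbols and an annotation of library, class and subtype, all used as deposited. The submitters' processing notes name Cell Ranger 4.0.0, Seurat 3, mm10 and GRCm38. The sources used here do not state filters on nuclei and genes, intron counting, doublet removal or how nuclei were annotated, and no doublet caller was run. Groups came from the sample titles, and 0 columns of values were left unused. Hox genes, gene lists, tests and named genes were chosen with earlier results of these data known.

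Counts were summed per library and class where a library held at least 20 nuclei of the class, and scaled to CPM. The sums were tested with edgeR 4.0.16 (filterByExpr, TMM, quasi-likelihood test, Benjamini-Hochberg adjustment over all genes tested) in R 4.3.3, with DESeq2 1.42.0 as an alternative. All 8 libraries of neurons entered one fit with 3 residual degrees of freedom, in which a group with 1 library takes its spread from the other groups. The contrasts share libraries and are not independent. Nothing says that all libraries came from separate animals, so p-values measure the spread between libraries, which may be technical. The test was checked on simulated counts.

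Named are the 10 Hox genes with the highest mean CPM in uninjured neurons, the highest of each cluster, genes of groups 10 to 13 with a UMI in neurons, all called Hox genes or else the 3 with the smallest p, and called members of other lists or else the 2 with the smallest p. Hoxd1, Hoxd8 and the genes named in class and family comparisons were chosen after their values were seen. Class and family differences used log2(CPM + 1) for genes with at least 30 UMIs. Coordinates and exon lengths come from GENCODE M21, where 19616 of the 19787 symbols and all 34 Hox symbols were found. Intervals at 95% and floors of 3 counts cover counting error only. Some subtypes are not reported here.

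Traced and untraced fractions carry the same animal number in titles and nucleus names, and the pairing was taken from these numbers. Replicate differences of the 2 fractions correlated at 0.204 over 7050 genes above a mean of 20 CPM, which by itself does not establish the pairing. Alternatives were no filter on low counts, DESeq2, leaving out each replicate, the animal block, dorsal excitatory subtypes alone, a minimum of 50 nuclei, CPM without mitochondrial genes, thinning to 1000 UMIs, gene span for exon length, pooled counts and groups 9 to 13. Added after the data were seen were the untraced libraries as the uninjured side, the block-free fit of experiment 1, and leaving out the uninjured library of experiment 2 or the regenerating library. Python 3.11.15, numpy 2.4.6, scipy 1.17.1, pandas 2.3.3 and matplotlib 3.10.9 were used.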

Additional observations from a re-analysis of the deposited data

Results flagged for a closer look

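An edgeR interaction test over all genes set the effect of hemisection in neurons against that in glia. Neurons and glia of the same library entered it as independent samples, so the adjusted p-values below do not account for their pairing. The genes named below were picked because they had been called lower in that glial class in the same counts. A difference from neurons was thus favoured before this test. Hoxa9 and Hoxb3 in oligodendrocytes, and both genes in microglia, had entered the glial test only through the uninjured library, where they were high. For oligodendrocytes 11 of 17 Hox genes were called (3.17% of all genes), each with a more positive log2 effect in neurons. The difference, neurons minus oligodendrocytes, was 3.22 for Hoxa7 (edgeR adjusted p = 0.00659), 4.89 for Hoxa9 (edgeR adjusted p = 0.00356) and 3.52 for Hoxb6 (edgeR adjusted p = 0.00459). For Hoxb3 the fitted difference was 9.42 (edgeR adjusted p = 0.00354), with 0 UMIs in oligodendrocytes after hemisection, so the fitted value is no bound. Against microglia 10 of 12 Hox genes differed, with 5.8 for Hoxa7 (edgeR adjusted p = 9.03e-05) and 3.53 for Hoxb8 (edgeR adjusted p = 0.000395). The uninjured side of each difference is the 1 library whose oligodendrocytes and microglia held 1735 and 2542 CPM of neuron markers, and the part of these in the difference was not tested.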

How the results depend on the processing

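In traced against untraced neurons, where 0 Hox genes were called, 2 were called with no filter on low counts, 2 with the replicate block and 0 to 2 when a replicate was left out. After hemisection the 2 calls in neurons became 0 with DESeq2, 0 in dorsal excitatory subtypes, 0 against the untraced libraries and 0 without either replicate. The 1 call of the uninjured library of experiment 2 against untraced neurons became 0 with DESeq2 and 0 to 3 when an untraced replicate was left out, 0 without replicate 1 and 3 without replicate 2. The 4 calls in oligodendrocytes became 0 with DESeq2, 0 against untraced and 0 to 3 when a hemisection replicate was left out. The 2 in microglia became 5 with no filter, 0 with DESeq2, 0 against untraced and 0 to 4 when a hemisection replicate was left out. The log2 fold change reversed against the untraced libraries for Hoxb4 in neurons (-0.13) and Hoxa7 in oligodendrocytes (0.11). The ratio between subtypes fell from 3.39 to 2.39 with at least 50 nuclei, the share of groups 4 to 8 from 81.8% to 76.9% by gene span, and the posterior share was 12.02% with group 9. Without the uninjured library of experiment 2, summed Hox levels went from 82.3 (SD 75.2) to 49.0 CPM in oligodendrocytes and from 81.3 (SD 105.6) to 34.5 in microglia, within an SD that this library itself widened. Under the other alternatives the classes moved by less than 1 SD, or by less than the counting interval for vascular nuclei, with 1 library. The cause of these changes was not tested. Over 81 alternatives for single genes, 48 kept direction and side of the threshold, 25 lost the call, 6 gained one and 2 reversed.

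Counts over all genes, higher and lower, moved as well. Traced against untraced gave 13 and 29 genes, and 83 and 151 with no filter, 65 and 94 with the block and 8 and 11 without traced replicate 1. Hemisection gave 110 and 535 genes, and 17 and 120 with DESeq2, 228 and 873 with no filter and 40 and 131 without replicate 1. Regenerating against traced gave 25 and 7, and 107 and 78 with no filter and 0 and 0 without traced replicate 1. The uninjured library of experiment 2 against untraced gave 240 and 59, and 53 and 10 with DESeq2, 499 and 116 with no filter and 447 and 82 without untraced replicate 1. Oligodendrocytes gave 338 and 569, with DESeq2 167 and 85 and without hemisection replicate 2 58 and 48, and microglia 609 and 1077, with DESeq2 176 and 148 and without that replicate 181 and 231. Depth limits the regenerating library most, where 0 UMIs allow 22.2 CPM.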

Other observations

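Microglia held few Hox UMIs outside the uninjured library of experiment 2, and Hoxb4 made up a large part of them in some libraries. Hoxb4 had 5 UMIs in untraced replicate 1 beside 9 of all other Hox genes, 1 beside 14 in untraced replicate 2, 0 beside 1 in hemisection replicate 1 and 18 beside 32 in hemisection replicate 2, where they lay in 14 nuclei. In the uninjured library of experiment 2 it had 7 beside 267. Its level in microglia was 15.0, 2.91, 0, 14.4 and 6.87 CPM in the same order. These levels rest on 0 to 18 UMIs per library, and the part of neuronal RNA in them was not tested.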
